A study of Drosophila melanogaster with 4 samples.

Results

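The transcripts of the mitochondrial genome were examined in wing imaginal discs of Drosophila melanogaster. The members are all entries of the authors' FPKM table whose name starts with mt:, which gave 13 of 15627 named genes. All 13 encode proteins, and no rRNA or tRNA entry met the rule. In the RefSeq gene table of the Release 6 assembly the mitochondrial chromosome carries 37 genes, of which 13 are protein-coding, 2 are rRNA and 22 are tRNA genes. All 13 members matched a protein-coding gene of that table by name, and the mitochondrial rRNAs and tRNAs were not analysed here.

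The discs, larval epithelia that give rise to the adult wing and thorax, came from larvae of the third instar grown at 25 °C. Wild type is the driver line with the alleles y1 and w*, in which the insertion P{Act5C-GAL4}25FO1, kept over the balancer CyO, y+, expresses the yeast activator GAL4 from an actin promoter. Polycomb RNAi has the same alleles and insertion together with the transgene UAS-dsRNA Polycomb. Both genotypes therefore carry the driver, the label of the RNAi discs names no balancer, and the labels do not say how many animals were pooled. Each genotype has 1 unstranded library made from total RNA, so there is no replicate error, no test and no p-value, and every difference below is one between 2 single libraries. FPKM counts fragments per kilobase of transcript, relative to all mapped fragments of a library, so levels are per length. Values set side by side between genes below are the listed ones, which also depend on how reads were assigned in overlapping genes and on listed values of 0 that may be failed estimates.

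The mitochondrial genome of animals encodes, besides rRNAs and tRNAs for its own translation, a small set of subunits of the respiratory chain and of ATP synthase. These proteins are membrane subunits that assemble with many more subunits encoded in the nucleus. In Drosophila the genes lie on both strands and are cut out of long precursor RNAs, mostly at the tRNAs between them. Complex I (NADH dehydrogenase) feeds electrons in, complex III (the cytochrome bc1 complex) passes them to cytochrome c, complex IV (cytochrome c oxidase) hands them to oxygen, and complex V (ATP synthase) uses the resulting proton gradient. Complex II has nuclear subunits only.

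The targeted gene Pc was 14.6 FPKM in the wild-type library and 13.0 FPKM in the RNAi library, a log2 difference of -0.16, and the table gives no values along the gene that would separate it from the RNAi transgene. The disc marker genes were present in both libraries. All 5 of them (vg, nub, sd, ap and wg) lay between 43.0 and 143.9 FPKM in the wild-type library and between 24.0 and 95.2 FPKM in the RNAi library.

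Some mitochondrial mRNAs were among the most abundant entries of both libraries. Together the 13 entries summed to 31096 FPKM in the wild-type library and 27117 FPKM in the RNAi library. This was 3.39% of the summed FPKM of all named genes in wild type and 2.75% in Polycomb RNAi. Both shares also depend on the largest entry of the table, CG41421, which took 9.41% of the sum in wild type and 16.4% in Polycomb RNAi. Without that entry the mitochondrial share was 3.74% in wild type and 3.29% in Polycomb RNAi. As deposited, the mitochondrial sum of the RNAi library was 0.872 times that of wild type.

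**Figure D1:**
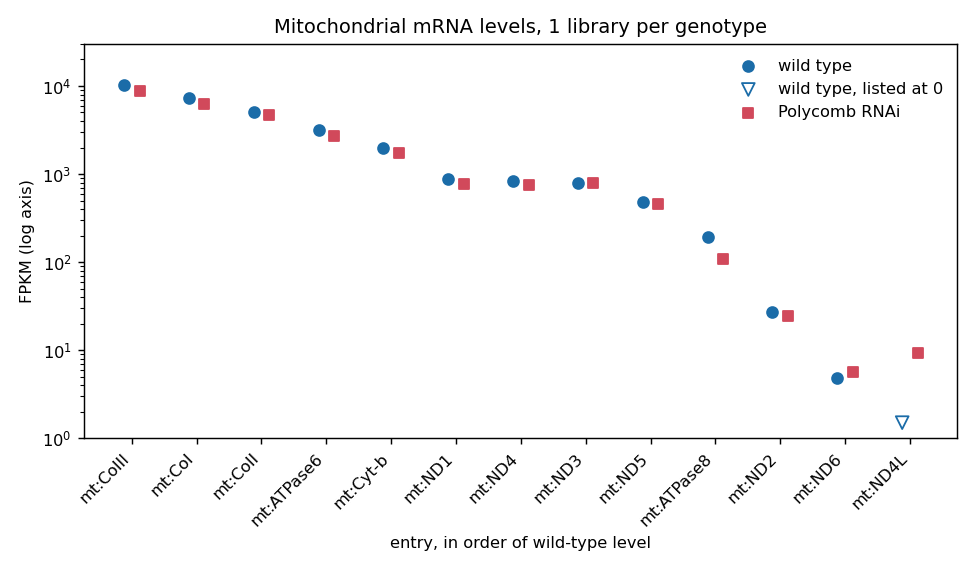
FPKM on a log axis of the 13 mitochondrial mRNA entries in the wild-type library (circles) and the Polycomb RNAi library (squares), ordered by wild-type level. The open triangle marks mt:ND4L, listed at 0 in wild type and drawn near the foot of the axis. Levels run from 10359 FPKM for mt:CoIII down to 4.85 FPKM for mt:ND6 in wild type, and the 5 highest entries keep their order in Polycomb RNAi.

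The subunits of cytochrome c oxidase headed the list. For mt:CoIII the level was 10359 FPKM in the wild-type library and 8824 FPKM in the RNAi library, which placed it at rank 4 and rank 5 of all named genes. The catalytic subunit mt:CoI was 7292 FPKM in the wild-type library and 6263 FPKM in the RNAi library, at ranks 5 and 7. The copper-binding subunit mt:CoII, which receives electrons from cytochrome c, was 5075 FPKM in the wild-type library and 4669 FPKM in the RNAi library, at ranks 12 and 15. All 3 were lower in Polycomb RNAi, at 0.852 times the wild-type level for mt:CoIII, 0.859 times for mt:CoI and 0.920 times for mt:CoII. As a group they made up 73.1% of the mitochondrial sum in wild type and 72.9% in Polycomb RNAi.

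Next in level were an ATP synthase subunit and cytochrome b. The proton-channel subunit mt:ATPase6 was 3183 FPKM in the wild-type library and 2697 FPKM in the RNAi library, a ratio of 0.847. Cytochrome b, the mitochondrially encoded subunit of complex III, is the entry mt:Cyt-b and was 1961 FPKM in the wild-type library and 1750 FPKM in the RNAi library, a ratio of 0.892. Both held the same rank among the 13 in each library, the fourth and the fifth.

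The small ATP synthase subunit mt:ATPase8 differed most among the entries listed above 0 in both libraries. It was present at 190.2 FPKM in the wild-type library and 109.4 FPKM in the RNAi library, a ratio of 0.575 (log2 difference -0.79), still within 2-fold. Its gene overlaps that of mt:ATPase6 in the Release 6 table. The ratio of mt:ATPase6 to mt:ATPase8 was 16.7 in wild type and 24.7 in Polycomb RNAi. How reads in overlapping genes were assigned is not stated, and its part in this difference was not tested.

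The 7 subunits of complex I formed a group of 4, each at or above the level of mt:ND5, and a group of 3 far below. The entry mt:ND1 was 889.7 FPKM in the wild-type library and 778.9 FPKM in the RNAi library, and mt:ND4 was 833.4 and 753.9 FPKM in the same order. For mt:ND3 the value was 796.7 FPKM in the wild-type library and 781.3 FPKM in the RNAi library, the smallest difference of all entries at a ratio of 0.981. For mt:ND5 the value was 484.3 FPKM in the wild-type library and 453.1 FPKM in the RNAi library, a ratio of 0.936. The order of mt:ND1, mt:ND4 and mt:ND3 in wild type became mt:ND3, mt:ND1 and mt:ND4 in Polycomb RNAi. With 1 library per genotype it cannot be said whether these 3 close levels differ beyond the spread between samples.

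The other 3 complex I entries were listed at low values in both libraries. The entry mt:ND2 was 27.2 FPKM in the wild-type library and 24.6 FPKM in the RNAi library, and its neighbour mt:CoI, on the same strand and separated from it by 3 tRNA genes, was 267.7 times higher in wild type and 254.1 times higher in Polycomb RNAi. For mt:ND6 the level was 4.85 FPKM in the wild-type library and 5.60 FPKM in the RNAi library, a ratio of 1.15. The adjacent gene on the same strand, mt:Cyt-b, was 404.3 times higher than mt:ND6 in wild type and 312.4 times higher in Polycomb RNAi. The entry mt:ND4L was listed at 0 in wild type and at 9.19 FPKM in the RNAi library. Its gene overlaps that of mt:ND4, which was 82.0 times higher than mt:ND4L in Polycomb RNAi.

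A listed 0 in this table need not mean that no RNA was there. The complex I subunit ND-B8, entered as CG15434, is part of an enzyme needed in nearly every cell and was listed at 0 in both libraries. Among all named genes, 29 with a listed 0 in wild type reached 9 FPKM in the RNAi library, and 21 with a listed 0 in Polycomb RNAi reached 9 FPKM in wild type, a level chosen after the value of mt:ND4L was seen. No fold is therefore given for mt:ND4L.

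Neighbouring genes did not share one listed level. From mt:CoI to mt:ND3 lies a run of 6 genes on the major strand. Adjacent levels in wild type differed by 1.44 times between mt:CoI and mt:CoII and by 26.7 times between mt:CoII and mt:ATPase8. They differed by 3.25 times between mt:ATPase6 and mt:CoIII and by 13.0 times between mt:CoIII and mt:ND3. The genes of mt:ATPase6 and mt:CoIII overlap in the Release 6 table, as do those of mt:ATPase8 and mt:ATPase6. On the minor strand mt:ND4 exceeded mt:ND5 by 1.72 times in wild type and by 1.66 times in Polycomb RNAi. The 9 genes coded on the major strand held 92.9% of the mitochondrial sum in wild type and 92.6% in Polycomb RNAi, and the 4 on the minor strand (mt:ND1, mt:ND4, mt:ND4L and mt:ND5) held 7.10% and 7.36%. The libraries are unstranded, so RNA from the opposite strand of a gene would count towards it.

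Levels were then set beside those of the nuclear subunits of the same complexes. Of 68 nuclear subunits of complexes I to V in the list, 67 reached 1 FPKM in either library, the exception being ND-B8. Their levels summed to 16632 FPKM in the wild-type library and 15503 FPKM in the RNAi library, so that the mitochondrial sum was 1.87 times the nuclear one in wild type and 1.75 times in Polycomb RNAi. In complex IV all 3 mitochondrial mRNAs lay above all 9 nuclear ones in both libraries, and the median mitochondrial level was 21.3 times the median nuclear level in wild type. The highest nuclear mRNA of complex IV was cype, which encodes subunit VIc, at 545.5 FPKM in the wild-type library and 545.0 FPKM in the RNAi library.

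In the other complexes the picture was mixed. In complex III mt:Cyt-b lay above all 9 nuclear subunits in both libraries. In complex I, 4 of the 7 mitochondrial mRNAs lay above all 32 tested nuclear subunits and the other 3 (mt:ND2, mt:ND6 and mt:ND4L) below all of them, in both libraries. For mt:ND4L in wild type this rests on its listed 0, which may be a failed estimate. The nuclear subunits of complex I spanned 48.7 to 220.2 FPKM in wild type, a much narrower range than that of the mitochondrial ones. In complex V mt:ATPase6 lay above all 13 nuclear subunits, whose highest was ATPsynC, the subunit of the membrane ring, entered as CG1746 (2056 FPKM in the wild-type library and 1888 FPKM in the RNAi library). In contrast, mt:ATPase8 lay within the nuclear range in wild type and below it in Polycomb RNAi, where the lowest nuclear subunit was sun at 161.7 FPKM.

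**Figure D2:**
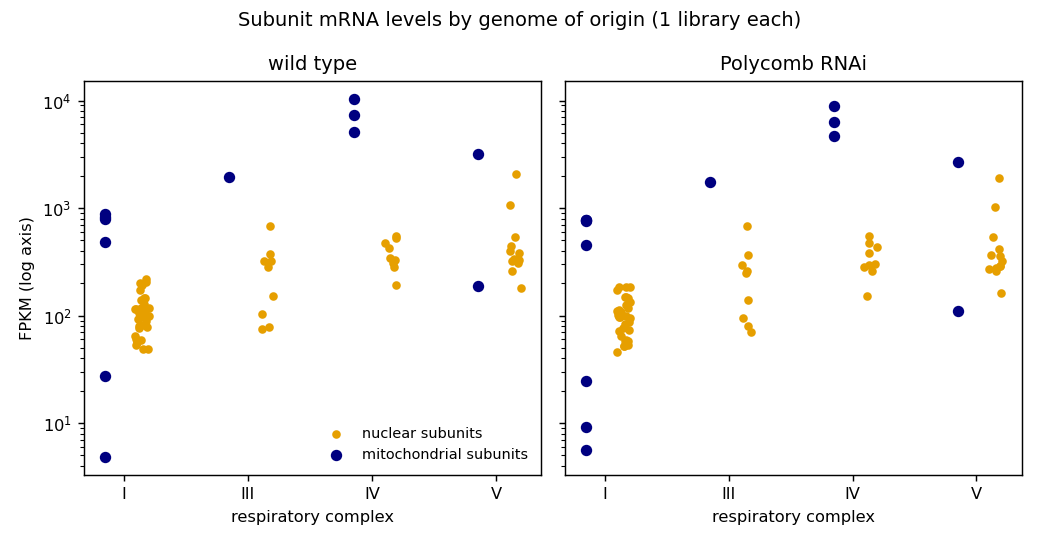
FPKM on a log axis of mitochondrially encoded subunits (large dark points) and nuclear subunits (small orange points) of complexes I, III, IV and V in the wild-type library (left) and the Polycomb RNAi library (right). The 3 mitochondrial mRNAs of complex IV sit above all 9 nuclear ones, while those of complex I lie on both sides of the nuclear range. Entries listed at 0 (mt:ND4L in wild type) are not drawn.

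The difference between the libraries was expressed as log2((Polycomb RNAi FPKM + 1)/(wild-type FPKM + 1)), and a gene that reached 1 FPKM in either library was counted when this was at least 1 in size, a 2-fold difference. All 13 members passed the minimum, mt:ND4L through Polycomb RNAi alone. Of the 13, 12 lay within 2-fold, none was at least 2-fold lower and 1, mt:ND4L, was counted as higher because of its 0 in wild type. Over the 8800 tested genes the shares were 4.41% for 2-fold higher and 3.20% for 2-fold lower, and nothing is read from the single member counted as higher. The median log2 difference of the 13 was -0.14, and that of the 12 entries above 0 in both libraries was -0.15, against a median of -0.0032 and quartiles of -0.14 and 0.14 over all tested genes.

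Small differences pointed mostly one way. In Polycomb RNAi 11 of the 13 entries were lower and 2 (mt:ND6 and mt:ND4L, the lowest in level) were higher, while 50.6% of all tested genes were lower by any amount. The entries are cut from shared precursor RNAs, so they are not independent observations. Apart from mt:ATPase8, the 10 other entries that were lower lay between 0.847 and 0.981 times the wild-type level. By complex, the median log2 difference was -0.10 for the 7 mRNAs of complex I, -0.22 for the 3 of complex IV and -0.52 for the pair of complex V, and the single value of complex III was -0.16. The complex I median includes mt:ND4L, whose difference rests on its listed 0 in wild type. The complex V median is the midpoint of mt:ATPase6 at -0.24 and mt:ATPase8 at -0.79. Taken on summed levels, the log2 ratio was -0.11 for complex I, -0.16 for complex III, -0.20 for complex IV and -0.27 for complex V. The complexes overlapped, since mt:ND1 of complex I at -0.19 lay below mt:CoII of complex IV at -0.12.

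**Figure D3:**
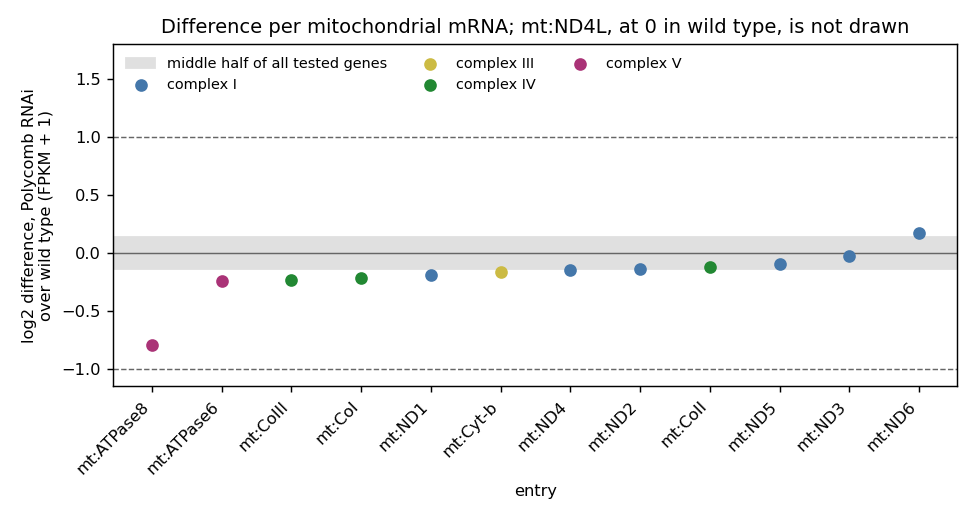
Log2 difference (Polycomb RNAi over wild type, FPKM + 1) of 12 mitochondrial mRNAs, coloured by complex, with the range between the quartiles of all tested genes in grey and the 2-fold limits as dashed lines. Of the 12 points 11 lie below 0, mt:ATPase8 at -0.79 is the farthest from it, and none reaches 2-fold.

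Because most members are very abundant, they were also set beside the 1075 genes with a mean of at least 100 FPKM over both libraries, a background chosen after the values were seen. Those genes had a median log2 difference of -0.04 with quartiles of -0.13 and 0.05, and 61.5% of them were lower in Polycomb RNAi. The 10 members at this level, which are not independent observations, were all lower, with a median of -0.18. Of these, 7 lay below the lower quartile of the background and 3 (mt:CoII, mt:ND5 and mt:ND3) lay between its quartiles.

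**Figure D4:**
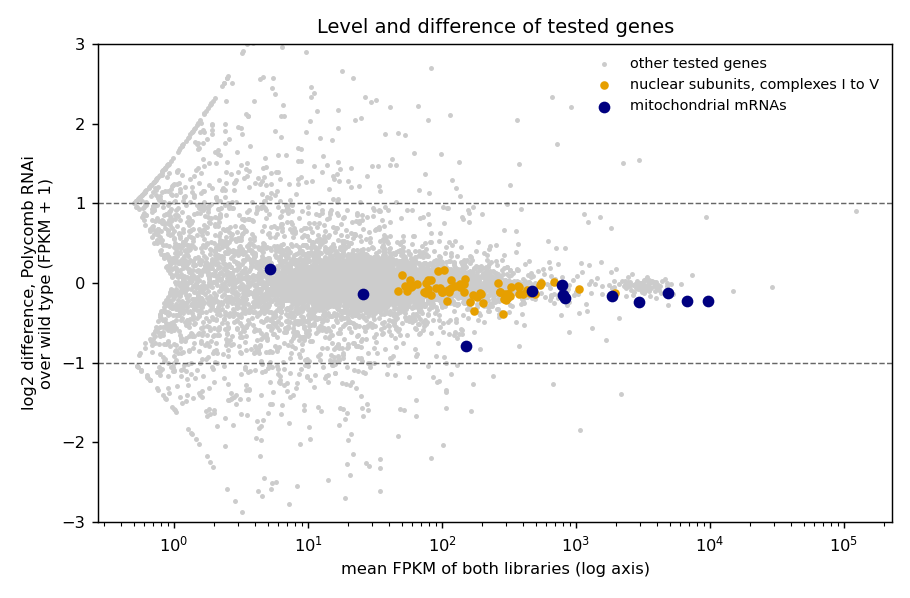
Mean FPKM of both libraries (log axis) against the log2 difference (Polycomb RNAi over wild type, FPKM + 1) for tested genes in grey, nuclear subunits of complexes I to V in orange and 12 mitochondrial mRNAs as large dark points. The mitochondrial mRNAs other than mt:ATPase8 lie between -0.24 and 0.17. The 84 genes beyond 3 log2 units and mt:ND4L are not drawn.

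The composition of the mitochondrial mRNA pool was close between the libraries. The entry mt:CoIII held 33.3% of the mitochondrial sum in wild type and 32.5% in Polycomb RNAi, and mt:CoI held 23.4% and 23.1%. The share of mt:CoII was 16.3% in wild type and 17.2% in Polycomb RNAi. Complex I mRNAs, 7 in number, held 9.76% in wild type and 10.35% in Polycomb RNAi, and the share of mt:ATPase8 was 0.612% in wild type and 0.403% in Polycomb RNAi. These shares do not depend on how the libraries were scaled to each other.

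Nuclear subunits of the same machines differed by similarly small amounts. None of the 67 tested was 2-fold apart, 57 were lower and 10 higher in Polycomb RNAi, and their median log2 difference was -0.10. Lower values made up 50.6% over all tested genes and 61.5% among genes with a mean of at least 100 FPKM, a level that 46 of the nuclear subunits reached, of which 42 were lower. By complex the medians were -0.07 for complex I with 24 of 32 lower, -0.09 for complex II with 4 of 4 lower, -0.11 for complex III with 7 of 9 lower, -0.14 for complex IV with 9 of 9 lower and -0.12 for complex V with 13 of 13 lower. The difference between the mitochondrial and the nuclear medians was not tested, as each rests on the same pair of libraries.

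The nuclear genes with the largest differences were still far from 2-fold. In complex III ox, which encodes a small subunit, was 323.4 FPKM in the wild-type library and 246.7 FPKM in the RNAi library, a log2 difference of -0.39. In complex IV CoVb was 193.8 and 152.1 FPKM, a log2 difference of -0.35, and levy, which encodes subunit VIa, was 341.6 and 303.8 FPKM. In complex I ND-15, entered as CG11455, was 220.2 FPKM in the wild-type library and 185.8 FPKM in the RNAi library. In complex V the delta subunit gene l(1)G0230 was 321.8 FPKM in the wild-type library and 277.2 FPKM in the RNAi library. The somatic cytochrome c gene Cyt-c-p was 135.7 FPKM in the wild-type library and 113.0 FPKM in the RNAi library, and its paralogue Cyt-c-d stayed below 1 FPKM in both.

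Genes that copy, transcribe and process the mitochondrial genome lay close together in the libraries. Of 21 in the list 20 were found and tested, none was 2-fold apart, 15 were lower and 5 higher, and the median log2 difference was -0.08. Over all tested genes 50.6% were lower, 4.41% at least 2-fold higher and 3.20% at least 2-fold lower. Nothing is read from the absence of 2-fold differences among so few genes. The mitochondrial RNA polymerase gene mtRNApol was 7.48 FPKM in the wild-type library and 6.41 FPKM in the RNAi library. TFAM, which packages mitochondrial DNA and promotes its transcription, was 85.8 and 81.1 FPKM, named here although its difference was not among the largest. SLIRP2, entered as CG8021 and related to a mammalian stabiliser of mitochondrial mRNAs, differed most, at 16.7 FPKM in the wild-type library and 23.4 FPKM in the RNAi library. The gene tam, which encodes the catalytic subunit of the mitochondrial DNA polymerase, was 7.02 FPKM in the wild-type library and 8.52 FPKM in the RNAi library.

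Regulators and glycolysis showed small differences too. Spargel, the fly relative of the mammalian coactivator PGC-1, was 41.7 FPKM in the wild-type library and 35.01 FPKM in the RNAi library. Of the other regulators, ewg was 28.9 and 31.3 FPKM, and Ets97D had a log2 difference of -0.02. Of 12 glycolysis genes none was 2-fold apart, 10 were lower and the median log2 difference was -0.09. For comparison, the share of lower values was 50.6% over all tested genes and 61.5% among genes with a mean of at least 100 FPKM. A list of 12 is too short to read anything from the absence of 2-fold differences. Hex-A, which phosphorylates glucose, was 41.8 FPKM in the wild-type library and 33.8 FPKM in the RNAi library, Gapdh1 was 195.3 and 238.8 FPKM, and ImpL3, the lactate dehydrogenase gene, was 10.2 and 8.57 FPKM.

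**Figure D5:**
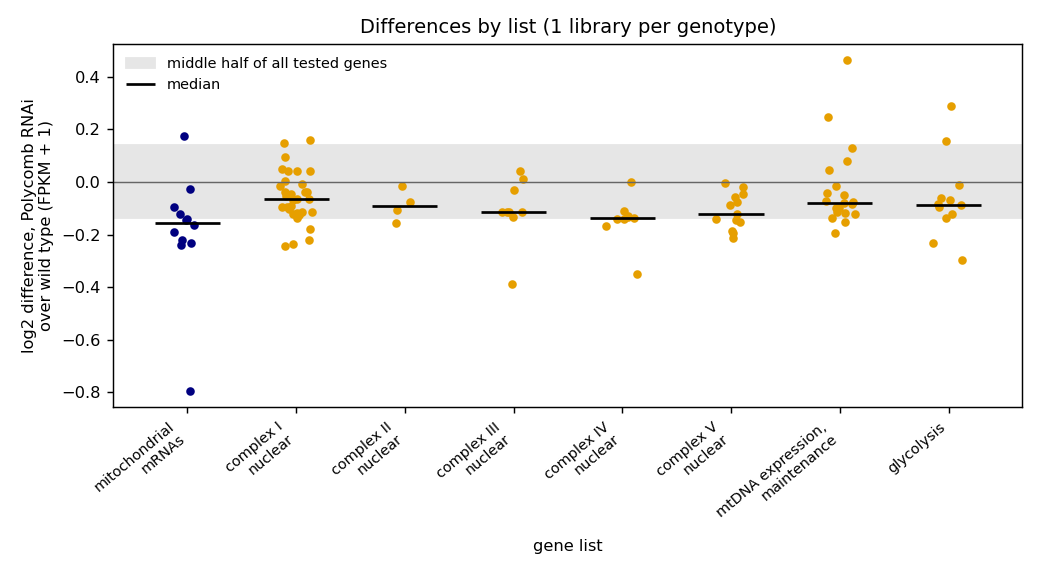
Log2 difference (Polycomb RNAi over wild type, FPKM + 1) of each gene in 8 lists, with the median of each list as a black line and the range between the quartiles of all tested genes in grey. The medians of all 8 lists lie below 0, at -0.15 for 12 mitochondrial mRNAs and between -0.14 and -0.07 for the others. The entry mt:ND4L is not drawn.

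Marker lists of other tissues and of the disc itself also differed between the libraries. Muscle markers summed to 63.4 FPKM in the wild-type library and 118.4 FPKM in the RNAi library, with 3 of 7 tested at least 2-fold higher. Haemocyte markers summed to 25.3 and 64.2 FPKM, with 4 of 6 at least 2-fold higher. All 7 tested muscle markers and all 6 haemocyte markers were higher by any amount. Without the pseudocount every haemocyte marker was above 2-fold, the lowest ratio being 2.07. Fat body markers summed to 4214 FPKM in the wild-type library and 2682 FPKM in the RNAi library, with 1 of 6 at least 2-fold lower. That gene, the larval storage protein gene Lsp1gamma (1675 and 465.4 FPKM), accounted for most of the difference in the sum. Without it the sum was 2539 and 2217 FPKM. Of the 6 fat body markers 4 were lower by any amount. Among them, Lsp2 had a log2 difference of -0.77 and Lsp1beta one of -0.62 (1070 and 696.1 FPKM). The other 2, Fbp1 and Fbp2, were slightly higher (762.4 and 801.1 FPKM, 305.3 and 343.0 FPKM). Tracheal markers summed to 368.8 and 98.5 FPKM, with 2 of 5 at least 2-fold lower. Without obst-A (220.0 and 20.2 FPKM) the sum was 148.8 and 78.3 FPKM, most of it vvl (118.6 and 62.6 FPKM). The tracheal sums therefore rest mainly on obst-A and vvl. All 5 tracheal markers were lower by any amount, btl the least (3.74 and 3.11 FPKM, log2 difference -0.21). Wing disc markers summed to 441.4 and 285.7 FPKM, with 2 of 5 at least 2-fold lower. Over the 8800 tested genes 4.41% were at least 2-fold higher and 3.20% at least 2-fold lower. No marker of these lists was at 0 in both libraries, and the part of these tissues in the mitochondrial differences was not tested. In such bulk samples fewer cells of a type and less RNA per cell cannot be told apart.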

How the data were processed

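The authors deposited FPKM values per gene, 1 column per RNA library, without counts. A peak list for H4K20me1, deposited with a score for each interval, was used only for its sequence names. TopHat2 2.0.11, Bowtie 1.0.0, Cufflinks, SICER, CASAVA 1.4 and the build dm3 are listed, without roles, per the submitters' processing notes. The sources used here do not give the annotation, the filters or the treatment of nuclear copies of mitochondrial DNA. A row named only by a dash was left out (0.127% of the summed FPKM in wild type, 0.206% in Polycomb RNAi).

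Depth is unknown. For 1159 low genes (0.005 to 0.3 FPKM in each library), the commonest ratio was 0.95 (Polycomb RNAi over wild type, 15.4% of genes within 2.5% of it), which gives no absolute depth. Differences were computed in Python 3.11.15 with pandas 2.3.3, a pseudocount of 1, a minimum of 1 FPKM in either library and a 2-fold limit. The pseudocount understates differences of low genes. The calculation was run on wild-type values multiplied by known folds without noise, which checks only the arithmetic of the 2-fold rule.

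The members and lists were chosen with earlier results of these data known. Named genes are all members, Pc, and up to 4 per list with the largest differences. TFAM, Ets97D, ewg, cype, ATPsynC, sun, CG41421, Fbp1 and ND-B8 were named for their role, level or a listed 0 after their values were seen. The markers btl and wg were named for their small or opposite difference, also after their values were seen. List symbols were matched through RefSeq synonyms (Release 6), and SLIRP1 was not matched. Coordinates of that assembly are not given, since the files use dm3, and no sequences were used.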

Additional observations from a re-analysis of the deposited data

How the results depend on the processing

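All 13 single differences kept their direction and their side of the 2-fold limit under the 5 planned settings that enter them (pseudocount and scaling), 65 values in all. The minimum of FPKM does not enter a single difference. The median of the mitochondrial entries was -0.25 with both libraries set to the same sum, and that of the nuclear subunits -0.20. This scaling moved the median of all tested genes to -0.10. Without mt:ND4L, a setting added after seeing the data, the median was -0.15 and the count of 2-fold higher entries 0. Of all genes, 388 higher and 282 lower became 570 and 415 with a pseudocount of 0.1; 134 were higher and 107 lower with a pseudocount of 5, and 189 and 186 with a minimum of 5 FPKM. The mitochondrial share of the sum was 3.74% and 3.29% without the largest entry, and 3.89% and 3.40% of the sum of the other genes without that entry. A planned share without rRNA and tRNA entries and a count of tRNA entries gave no value, since there were none. No paired analysis was possible because each genotype has 1 library.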

Other observations

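The H4K20me1 peak list of wild-type discs held 7885 intervals on 10 named sequences, and 0 of them lay on a sequence named as the mitochondrial genome. The sources used here do not say whether reads of the mitochondrial genome were kept before peak calling, so nothing is read from this count.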
